A study of Mus musculus with 2 samples.

Results

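The CD3 chains are the signalling subunits of the T-cell receptor (TCR), and 4 genes encode them in the mouse: *Cd3e* (CD3ε), *Cd3d* (CD3δ), *Cd3g* (CD3γ) and *Cd247* (CD3ζ). They were taken by symbol from a table of 21041 genes, and all 4 were listed. The table holds RNA-seq of thymocytes at the DP stage, when they carry both CD4 and CD8, with 1 library from WT and 1 from *Cxxc1*-deficient mice. WT mice carried *Cxxc1* fl/fl alleles without Cre. The deficient mice were *Cxxc1* fl/fl h*CD2*-Cre by the study's methods, in which exons 4 and 5 of *Cxxc1* are removed from early thymocytes onward and also in other immune cells, whereas the genotype label of the deposited library reads *Cxxc1*+/-. The targeted allele had been backcrossed onto C57BL/6 for 5 generations, and mice were 3 to 4 weeks old unless stated otherwise. How many mice gave each RNA sample is not given in the sources used here. CXXC1 is a CpG-binding component of the SETD1 complex, which trimethylates histone H3 at lysine 4.

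The αβ chains of the TCR recognise peptide bound to MHC but have no signalling tail of their own. CD3ε pairs with CD3δ or with CD3γ, CD3ζ pairs with itself, and these dimers assemble with the αβ chains in the endoplasmic reticulum before the receptor reaches the surface. Their cytoplasmic tails carry immunoreceptor tyrosine-based activation motifs (ITAMs), whose tyrosines LCK phosphorylates and ZAP70 then binds. In DP thymocytes this signal decides between positive selection and death.

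The reading frames of the 4 genes showed how the ITAMs are divided among the chains. An ITAM was searched for as a tyrosine codon followed after 2 codons by a leucine or isoleucine codon, and the same again after 6 to 8 further codons, in the GENCODE vM1 coding sequences. *Cd3e* (189 codons), *Cd3d* (173 codons) and *Cd3g* (182 codons) each held 1 match, and *Cd247* (164 codons) held 3, in the transcript of each gene with most matches. Of the other transcripts with a coding sequence, a shorter one of *Cd3g* held 0, and the fewest for *Cd247* was 2. The matches are printed below with the tyrosine and the leucine or isoleucine codons in capitals, because they are what each chain contributes to the receptor.
Cd3e ITAM 1: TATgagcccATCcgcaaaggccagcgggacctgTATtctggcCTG
Cd3d ITAM 1: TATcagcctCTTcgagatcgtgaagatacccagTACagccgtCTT
Cd3g ITAM 1: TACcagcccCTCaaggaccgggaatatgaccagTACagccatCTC
Cd247 ITAM 1: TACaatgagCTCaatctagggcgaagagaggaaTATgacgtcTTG
Cd247 ITAM 2: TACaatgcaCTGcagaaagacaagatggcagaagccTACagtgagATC
Cd247 ITAM 3: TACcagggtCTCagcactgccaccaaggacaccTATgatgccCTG

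The deposited values were normalized expression values without a named unit. For short genes with 1 annotated transcript, a formula was fitted in which a value is whole reads, divided by transcript length, times a constant of the library. By this formula, 1 read on 1 kb of transcript was worth approximately 4.06 in WT and 4.70 in *Cxxc1*-deficient cells. Of the short genes used, 61.6% in WT and 58.4% in *Cxxc1*-deficient cells then gave whole reads within rounding, against a median of 9.41% and 9.70% for other constants. The constants were chosen for the best fit, and the rest of the short genes used did not follow the formula within rounding. If the formula holds, the values are per length and can be compared between genes. With the longest transcripts they correspond to approximately 1401934 and 725374 reads on 19090 genes. They are not RPKM, in which these constants would mean totals of 246184 and 212857 reads, and the authors' scaling is not given in the sources used here, so the reads and every interval built on them are estimates. By these estimates the *Cxxc1*-deficient library was the shallower one. The deposited values added up to 1551994 for the WT library and to 981677 for the other, so their totals were not level. Fold reductions and shares of lower genes taken from deposited values are not corrected for this gap. How much of the gap reflects depth was not tested, and results under other scalings are given below. The median value was 36 in both libraries, and the 1122 olfactory receptor genes, which thymocytes are not known to use, had medians of 22 (WT) and 24 (*Cxxc1*-deficient). The targeted gene, *Cxxc1*, stood at 91 and 50 in the same order, and this value may also count the exons that Cre leaves in place. Of the 200 genes closest to *Cxxc1* in mean value, 66 had a ratio at least as low. The lower value is thus not particular to the targeted gene and does not by itself show the deletion. By qPCR the study reports almost no *Cxxc1* mRNA in deficient DP cells. Among 15 Y-linked genes, 0 had a value above 0 in the WT library and 7 in the other one, and the sex of the mice is not given in the sources used here. The X-linked gene *Xist* had 2419 (WT) and 1021 (*Cxxc1*-deficient), so the Y-linked genes alone do not settle the sex of the mice. Each genotype had 1 library, so differences were not checked against replicates and no p-value was computed. All intervals are 95% intervals, rest on approximate reads, cover counting error only and describe these 2 libraries.

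*Cd3e* had by far the highest value of the 4 chains in both libraries and the smallest difference between them. It encodes CD3ε, the partner of both CD3δ and CD3γ. The gene lies at chr9:44806826-44817673 of mm9, minus strand. WT DP thymocytes had a value of 2304 and *Cxxc1*-deficient ones 1490, from approximately 815 and 455 reads. The fold reduction was 1.55, with an interval from 1.38 to 1.74 (Clopper-Pearson). This interval holds for the deposited scaling only. Under other scalings given below, the log2 ratio came as near to 0 as -0.067 or reversed to 0.37. *Cd3e* ranked 19 among all genes by value in WT and 6 in *Cxxc1*-deficient cells.

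*Cd3d* differed most. It encodes CD3δ and lies at chr9:44789876-44795135, plus strand. WT DP thymocytes had 680 and *Cxxc1*-deficient ones 85, which is 8-fold lower (interval 5.21 to 12.7). These values rest on few reads, approximately 221 and 24. *Cd3d* ranked 178 in WT and 1867 in *Cxxc1*-deficient cells, where it was still 2.36 times the median gene. After subtraction of the olfactory receptor median, a setting chosen after seeing the data, the values were 658 and 61 and the fold reduction was 10.8. An alignment of the transcript to the genome matched 8.99% of its bases at other places with at least 96% identity, so some reads there would not map uniquely in either library.

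*Cd3g* encodes CD3γ and lies at chr9:44777655-44788514, minus strand. Its WT value of 884 compared with 193 in *Cxxc1*-deficient cells, 4.58-fold lower (interval 3.29 to 6.55), on approximately 223 and 42 reads. With the shorter of its 2 coding transcripts the reads would be 90 and 17 and the interval 2.71 to 8.20. By value it ranked 114 among WT genes and 379 among those of *Cxxc1*-deficient cells.

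*Cd247* encodes CD3ζ, the chain with most ITAMs, and is the only member away from chromosome 9, at chr1:167718812-167807407, plus strand. WT DP thymocytes had 820 and *Cxxc1*-deficient ones 230, which is 3.57-fold lower (interval 2.94 to 4.34). The approximate reads, 548 and 133, assume the longest of 4 transcripts annotated as protein-coding, and with the shortest the interval runs from 2.72 to 4.78. The last 12123 bases of the gene body overlap *Pou2f1* on the other strand, which had 153 and 113, and reads from the overlap cannot be told apart where counting ignores strand.

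**Figure D1:**
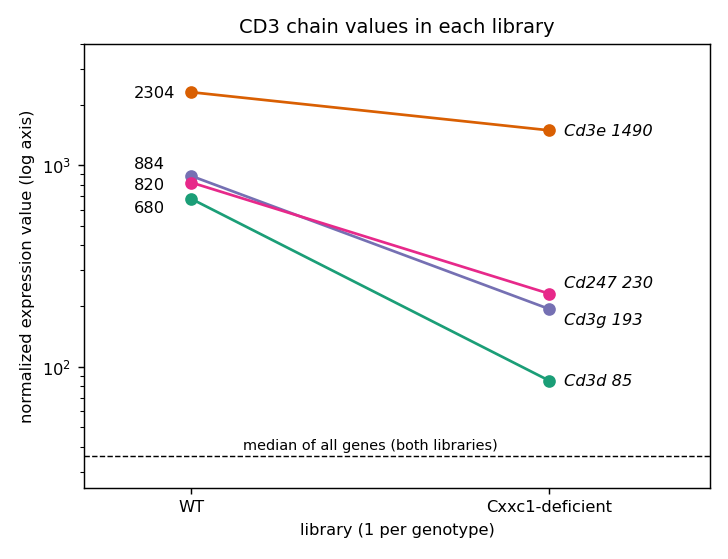
Normalized expression value (log axis) of each CD3 chain in the WT and the Cxxc1-deficient library, 1 point per library joined by a line, with the median of all genes, 36 in both, as a dashed line. The line of Cd3e (2304 to 1490 as deposited; higher in Cxxc1-deficient cells under one scaling) is the flattest and that of Cd3d (680 to 85) the steepest, and Cd3g and Cd247 lie close together in both libraries.

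*Cd3e* was higher in the *Cxxc1*-deficient library under one of 4 other scalings given below and near level under another, with a log2 ratio of -0.067. As deposited, all 4 chains were lower in that library, and 3 of the 4 were at least 2-fold lower. Over the 20125 genes above 0 in at least 1 library, 59.9% were lower and 17.4% were at least 2-fold lower. Most genes with a high value were lower, however. Of 2472 well-expressed genes, those whose values averaged at least 100 over the libraries, 95.2% were lower, 56.8% at least 2-fold lower, while 0.485% were at least 2-fold higher, so 3 of 4 chains is not far from the background at that level. All 4 chains were at least 1.5-fold lower, as were 81.4% of well-expressed genes and 31.9% of all genes. The 3-fold mark was passed by *Cd3d*, *Cd3g* and *Cd247*, against 18.4% of well-expressed genes and 6.3% of all genes. At least 4-fold lower were *Cd3d* and *Cd3g*, with 6.39% of well-expressed genes and 3.34% of all genes past that fold. The median log2 ratio of the 4 chains was -2.01, against -0.20 over all genes and -1.08 over well-expressed genes. In bulk RNA, fewer cells that express a gene and less of its RNA per cell cannot be told apart.

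**Figure D2:**
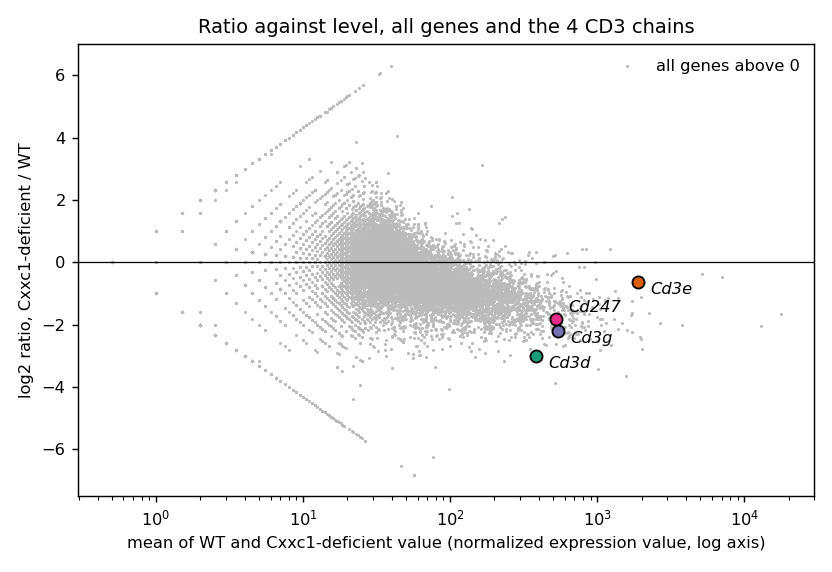
Log2 ratio of Cxxc1-deficient to WT against the mean of both libraries (log axis) for all genes above 0 (grey) and the 4 CD3 chains (coloured points, labelled). Ratios run lower as the level goes up. Cd3e lies near the upper edge of the cloud at its level and Cd3d at the lower edge.

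Because of this dependence on level, each chain was compared with its 200 nearest genes in rank of mean value. For *Cd3d* the 200 genes had means from 325.5 to 509.5 and a median fold reduction of 2.62. Of these, 0 of 200 had a ratio as low as that of *Cd3d*, which lay 3.06-fold below their median. For *Cd3g* the median fold reduction of the closest genes was 2.90, and 21 of 200 had a ratio at least as low. *Cd247* shared 194 of these 200 genes with *Cd3g*, and 57 of its 200 had a ratio at least as low. The median fold reduction of the genes closest to *Cd247* was also 2.90, which lay outside its interval with the longest transcript (2.94 to 4.34) and inside that with the shortest (2.72 to 4.78), so a difference of *Cd247* from the median of genes at its level depends on the transcript assumed.

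*Cd3e* stood on the other side. The median fold reduction of its 200 closest genes was 3.01, and 183 of the 200 had a ratio at least as low. The *Cd3e* ratio was 1.95-fold above their median. Few genes are as high as *Cd3e*, so its closest genes extend from a mean of 437.5 up to 17767. With closeness taken from the *Cxxc1*-deficient value in place of the mean, the log2 distance of *Cd3e* above the median was 0.55 in place of 0.96.

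**Figure D3:**
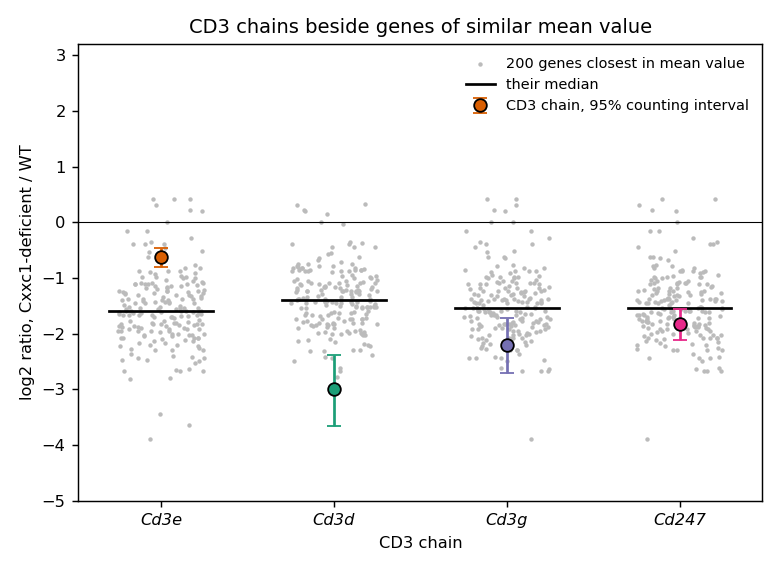
Log2 ratio of Cxxc1-deficient to WT for each CD3 chain (large points, with bars for the 95% counting interval), for the 200 genes closest in mean value (grey points) and for the median of those genes (black line). Cd3d lies below all of its 200 closest genes, Cd3g and Cd247 lie below the median, and Cd3e lies above it.

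The direction for *Cd3e* depended on how the libraries were scaled. Its log2 ratio was -0.63 as deposited and -0.067 once the libraries had equal sums outside the 100 highest genes. It was 0.37, higher in *Cxxc1*-deficient cells, once the well-expressed genes had equal medians. For all genes these scalings moved the median by 0.56 and 1.00 on the log2 scale, and the share of lower genes from 59.9% to 32.5% and 17.4%. *Cd3d*, *Cd3g* and *Cd247* were lower under each scaling that was tried, with log2 ratios of -2.00, -1.20 and -0.84 under the last one. A scaling to equal totals over all genes was not among those tried.

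Ratios between chains are formed within a library and are free of this scaling. *Cd3e* over *Cd3d* was 3.39 in the WT library and 17.5 in the other, a change of 5.17-fold with an interval from 3.34 to 8.01 (normal approximation on log reads). *Cd3e* over *Cd3g* changed by 2.96-fold, from 2.61 to 7.72, with an interval from 2.09 to 4.20. *Cd3e* over *Cd247* changed by 2.31-fold, from 2.81 to 6.48, with an interval from 1.85 to 2.88. For each of these 3 pairs the shift towards *Cd3e* was thus larger than counting error.

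The other 3 pairs differed less. *Cd3d* over *Cd247* was 0.829 in the WT library and 0.37 in the other, a log2 change of -1.17 with an interval from -1.83 to -0.50. *Cd3d* over *Cd3g* had a log2 change of -0.80, and its interval from -1.58 to -0.03 reached from -1.77 to 0.16 when the shortest coding transcripts were assumed. *Cd3g* over *Cd247* had a log2 change of -0.36 with an interval from -0.91 to 0.19, so a difference between CD3γ and CD3ζ transcripts was not detectable at this depth.

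By level, the order in WT was *Cd3e*, *Cd3g*, *Cd247* and *Cd3d*. The WT value of *Cd3g* had an exact Poisson interval from 773 to 1010 and that of *Cd247* one from 753 to 892, so these neighbours did not differ beyond counting error, and the interval of *Cd3d*, 592 to 774, overlapped both at its upper end. In *Cxxc1*-deficient cells the order was *Cd3e*, *Cd247*, *Cd3g* and *Cd3d*. *Cd247* (interval 193 to 273) and *Cd3g* (139 to 261) again overlapped, while *Cd3d* (54.6 to 127) lay below both and *Cd3e* (1355 to 1632) above all.

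The sum of the 4 chains was 4688 for the WT library and 1998 for the *Cxxc1*-deficient one. *Cd3e* made up 49.1% and 74.6% of these sums. The share of *Cd3d* was 14.5% and 4.25%, that of *Cd3g* 18.9% and 9.66%, and that of *Cd247* 17.5% and 11.5%. *Cd3e* over the sum of its partner chains, *Cd3d* plus *Cd3g*, went from 1.47 (WT) to 5.36 (*Cxxc1*-deficient). Without *Cd3e*, the other chains summed to 2384 and 508, a fold reduction of 4.69. These are shares of mRNA if the values are per length, and protein was not measured here.

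**Figure D4:**
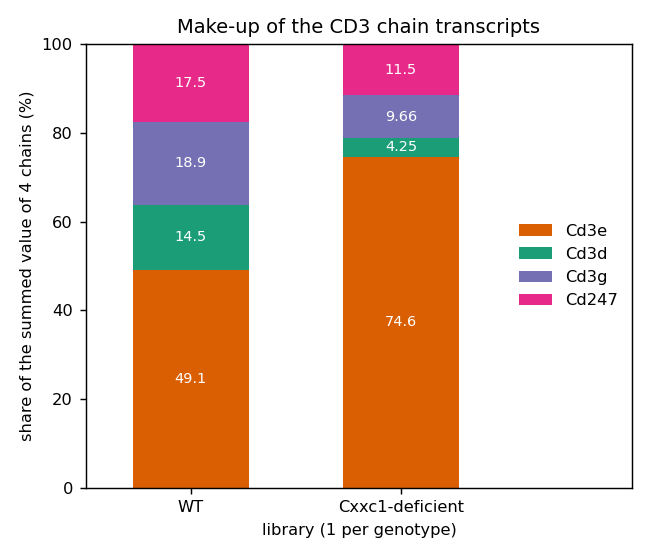
Share (%) of each chain in the summed value of the 4 CD3 chains in the WT and the Cxxc1-deficient library. Cd3e takes 49.1% of the WT and 74.6% of the Cxxc1-deficient sum, and the shares of the other 3 chains are smaller in Cxxc1-deficient cells.

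*Cd3g*, *Cd3d* and *Cd3e* form a cluster of 40019 bases on chromosome 9. *Cd3g* and *Cd3d* are transcribed away from each other from starts 1361 bases apart, and *Cd3e* points towards *Cd3d*, with 11690 bases between the 2 genes. The members with the largest and the smallest reduction are thus neighbours on the chromosome. The 5 genes of the table on each side of the cluster had low values apart from *Ube4a*, a ubiquitin ligase gene next to *Cd3g*, whose values were 127 (WT) and 180 (*Cxxc1*-deficient). Their median log2 ratio was -0.09, against -0.20 over all genes. Of the 10, 1 was at least 2-fold lower, *Ttc36* (27 and 6), where 17.4% of all genes were. Genes with low values had less negative ratios in general, so neighbours with low values cannot be set against the chains. Around *Cd247* the 10 neighbours had a median of -0.02. *Dcaf6* (147 and 50) was at least 2-fold lower and *Creg1* (32 and 69) at least 2-fold higher, where 17.4% and 5.89% of all genes were. The neighbour there with a value like that of *Cd247* was *Rcsd1*, with 747 and 395.

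The promoters of the 4 chains are printed because CXXC1 binds CpG and the chains differ in it. In DP thymocytes the study found only a small share of CXXC1 sites at CpG islands, although it also reports enriched binding at the centres of these islands. In culture, a CXXC1 mutant without DNA binding still allowed *Cxxc1*-deficient thymocytes of an earlier stage to form DP cells. A link between CG count and the reductions of the chains was not tested. Each is the 250 bases before the start in RefSeq (GRCm38.p6 table), found by exact match once on its chromosome of NCBIM37 (mm9) and written from 5′ to 3′ on the gene's strand. Capitals mark every CG.
Cd3e, chr9:44817695-44817944, minus strand: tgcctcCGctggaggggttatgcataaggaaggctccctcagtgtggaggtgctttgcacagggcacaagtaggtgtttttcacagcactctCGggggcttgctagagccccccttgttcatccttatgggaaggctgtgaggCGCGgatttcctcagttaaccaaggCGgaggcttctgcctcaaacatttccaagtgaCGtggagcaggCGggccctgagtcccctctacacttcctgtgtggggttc
Cd3d, chr9:44789619-44789868, plus strand: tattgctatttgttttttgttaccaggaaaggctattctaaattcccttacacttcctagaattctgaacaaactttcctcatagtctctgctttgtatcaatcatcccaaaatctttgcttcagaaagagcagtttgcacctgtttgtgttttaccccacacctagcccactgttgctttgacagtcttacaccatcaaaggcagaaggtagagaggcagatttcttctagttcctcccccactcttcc
Cd3g, chr9:44788515-44788764, minus strand: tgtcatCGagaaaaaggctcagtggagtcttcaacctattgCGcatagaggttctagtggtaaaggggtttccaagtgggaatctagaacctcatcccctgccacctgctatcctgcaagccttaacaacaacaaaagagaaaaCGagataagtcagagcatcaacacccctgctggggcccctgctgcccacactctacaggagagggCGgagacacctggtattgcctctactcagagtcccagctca
Cd247, chr1:167718562-167718811, plus strand: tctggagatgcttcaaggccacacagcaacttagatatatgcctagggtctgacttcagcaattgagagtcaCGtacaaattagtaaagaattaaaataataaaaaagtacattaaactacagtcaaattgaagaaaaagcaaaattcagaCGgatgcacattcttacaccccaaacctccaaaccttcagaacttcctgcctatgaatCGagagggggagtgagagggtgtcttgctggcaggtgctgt

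The *Cd3e* promoter held 7 CG, that of *Cd3g* 4, that of *Cd247* 3 and that of *Cd3d* 0. Over the same window in 32851 RefSeq promoters the median was 6 CG, and 92.1% held at least 1. Among well-expressed genes, the 187 genes whose promoters held at most 7 CG had a median log2 ratio of -1.03, and the 1730 genes with more had -1.09. The cut was set at the highest count among the chains, so all 4 fall on the same side. It therefore cannot bear on the differences among the chains. All 4 promoters held GGAA on either strand, the core of ETS factor sites, with 5 matches in *Cd3e*, 6 in *Cd3d*, 2 in *Cd3g* and 1 in *Cd247*, where 93.4% of all promoters held it. All 4 held 1 match to TGNGGT, which RUNX sites contain and which 40.1% of promoters held, and at least 1 E-box, CANNTG, held by 66.2%. In *Cd3e* and in *Cd3g*, 1 GGAA match overlapped an E-box. GATA was matched in *Cd3d*, *Cd3g* and *Cd247* but not in *Cd3e*, and 53.6% of promoters held it. TATAAA was in none of the 4 and in 12.4% of promoters. A match of letters does not show a site in use.

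The other genes of the TCR pathway were lower in most cases, and most of them by less than *Cd3d*, *Cd3g* and *Cd247*. Of 51 genes in 6 lists, 49 were lower, 33 were at least 2-fold lower and 0 were at least 2-fold higher, with a median log2 ratio of -1.12. These shares are near those of well-expressed genes, of which 95.2% were lower and 56.8% at least 2-fold lower with a median of -1.08, and above those of all genes, 59.9% and 17.4%. With equal medians of well-expressed genes, 11 were at least 2-fold lower. No gene of the 51 had a ratio as low as that of *Cd3d*, 7 were as low as *Cd3g*, 12 as *Cd247* and 41 as *Cd3e*. *Cd3d* thus lay below every listed gene and *Cd3e* above most of them.

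Among the coreceptors, kinases and phosphatases that act on ITAMs, 10 of 12 genes were at least 2-fold lower, against the same 56.8% of well-expressed and 17.4% of all genes. *Cd8a*, whose product brings LCK to the receptor with MHC class I, had 3503 and 507. *Cd4*, the coreceptor for MHC class II, had 2728 and 1257, a fold reduction of 2.17. *Lck*, which phosphorylates ITAMs, had a fold reduction of 4.21 and *Zap70*, which binds them, one of 2.79. *Syk*, the relative of *Zap70* that early thymocytes also use, was the member listed higher, with 61 and 73.

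Of the 14 adaptors and enzymes downstream of ZAP70, 7 were at least 2-fold lower, a smaller share than the 56.8% of well-expressed genes, and the others were lower by less. *Lat*, the membrane adaptor that ZAP70 phosphorylates, had 1075 and 198. A list of 13 genes held CD3-binding adaptors, genes of receptor turnover and the surface glycoprotein genes *Cd28*, *Cd2*, *Cd5* and *Cd6*. Of these 13 genes, 9 were at least 2-fold lower, again not far from 56.8%. *Trat1*, which encodes an adaptor that associates with CD3ζ, had 575 and 110, and *Sla*, which encodes an adaptor that lowers CD3ζ levels in DP cells, had 1292 and 231. *Nck1* and *Nck2*, whose products bind CD3ε, had fold reductions of 2.29 and 2.93.

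Genes for folding and disposal of unassembled chains in the endoplasmic reticulum included *Canx*, the chaperone calnexin, with 413 and 145, and 4 of these 7 genes were at least 2-fold lower, about the share of well-expressed genes (56.8%). *Ptcra*, the pre-TCR alpha chain that stands in for TCRα before the DP stage, had 79 and 44, and it was the only one of 13 symbols for antigen-binding chains that matched the table. ITAM chains of other receptors were near or below the median gene, apart from *Cd79b* with 74 and 43. *Fcer1g*, which can stand in for CD3ζ, had 43 and 14, and *Tyrobp* had 7 and 0. Among the ITAM genes listed, the CD3 chains had the highest values in both libraries.

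**Figure D5:**
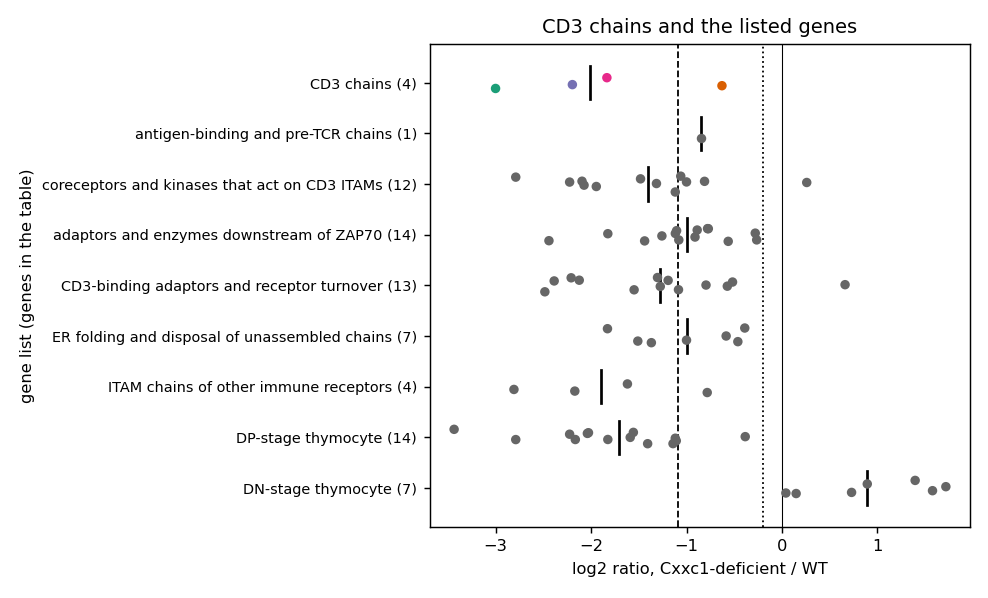
Log2 ratio of Cxxc1-deficient to WT for the CD3 chains (coloured as in the other plots), the listed pathway genes and the DP-stage and DN-stage markers (1 point per gene, black bars for the list medians). The dotted line marks the median of all genes, -0.20, and the dashed line that of genes with a mean of at least 100, -1.08. The CD3 chains span from -3 to -0.63 (Cd3e turns to 0.37 under one scaling). The listed DN-stage genes lie at 0.04 or above, and Ptcra, plotted under another list, at -0.84.

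Markers of the labelled cell type were present in both libraries, and those of an earlier stage differed between the libraries. The 14 DP-stage genes had a sum of 53319 in the WT library and 16718 in the other, and 13 of them were at least 2-fold lower, against 56.8% of well-expressed and 17.4% of all genes. All 7 listed genes of the DN stage, the double-negative cells that precede DP cells, were higher in *Cxxc1*-deficient cells. *Ptcra*, whose product also serves before the DP stage, was outside this list and was lower, with 79 (WT) and 44 (*Cxxc1*-deficient). Over all genes, 59.9% were lower. Of the 7, 3 were at least 2-fold higher, where 5.89% of all genes were. With equal medians of well-expressed genes all 7 passed that fold, and at 3-fold 1 did as deposited. The sum of the list was 378 (WT) and 887 (*Cxxc1*-deficient), with 0 of the 7 genes at 0 in either library. *Kit* (35 and 36), *Dtx1* (37 and 41), *Cd44* (35 and 58) and *Hes1* (28 and 52) had WT values near or below the median gene, 36. Olfactory receptor genes had medians of 22 and 24, so a value above 0 at this level does not show a gene in use. *Il2ra*, the CD25 chain of DN cells, had 63 and 207, *Notch1* had 124 and 326, and *Notch3* had 56 and 167. DN cells are known to transcribe CD3 genes. The part of such cells in the CD3 ratios was not tested. The lists of B cells, macrophages and dendritic cells, erythroid cells, gamma-delta T, NK and innate lymphoid cells, mature SP cells and thymic stroma summed to between 134 and 585 in WT and between 151 and 499 in *Cxxc1*-deficient cells, and no marker of these lists exceeded 221.

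The genes whose pair of values came closest to each chain were also listed, by the distance between log2 values in the 2 libraries. For *Cd247* they were *Tapt1* (818 and 231), *Fyb* (824 and 225), *Mbd2*, *Ifngr1* and *Arhgap30*, all within 0.07. For *Cd3g* they were *Ppp1cb* (851 and 194), *Cep97*, *Srsf6*, *Etnk1* and *Pag1*, within 0.17. For *Cd3d*, *Mns1* (611 and 89) was at 0.17, and *Gimap6*, *Ctsl*, *Endou* and *R3hdm4* followed at 0.36 to 0.42. The nearest to *Cd3e* was *Cd4* at 0.35, followed by *Xist*, *Trp53inp1*, *Sh3bgrl* and *Mbnl1* up to 0.83.

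The shape of the transcripts bears on how far levels can be compared between the chains. If reads were aligned to the genome without splicing, a 50-base read counts only where it lies in 1 exon. That held for 81.8% of read positions in *Cd3e*, 85.0% in *Cd3d*, 72.9% in *Cd3g* and 88.1% in *Cd247*, so the 4 levels would be lowered to unlike degrees. No stretch of *Cd3e*, *Cd3g* or *Cd247* matched elsewhere in the genome over at least 50 bases.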

How the data were processed

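TRIzol was used to isolate RNA from DP thymocytes of both genotypes, NEBNext mRNA libraries were made, and 50-base reads were taken on a HiSeq. The submitters' processing notes and the study's methods name CASAVA 1.8.2, Bowtie 1.0.1, the genome mm9, uniquely mapped reads and Partek. The values that the authors deposited are treated as a score: normalized per gene and rounded to whole numbers. Their unit and the gene annotation are not given in the sources used here.

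Ratios were taken between deposited values raised to at least 1. Approximate reads were estimated from genes of up to 700 bases with 1 transcript in GENCODE vM1 (NCBIM37, the build of mm9), with fewer than 8 reads and a rounding tolerance under 0.12 reads plus 0.01, and longest coding transcripts were used for the members. Intervals are Clopper-Pearson (ratios), exact Poisson (values) and normal on log reads (pairs), at 95%, and cover counting error only. No test was run, since each genotype has 1 library. The fold threshold was 2, as in the study. Alternatives were 4 scalings, pseudocounts of 1 and 10, a filter on genes with a mean under 10, folds of 1.5 and 3, other sets of closest genes and, chosen after seeing the data, background subtraction. The estimate of reads and the intervals were run on data simulated with the same formula and transcript lengths. That run checks the code and cannot show whether the deposited values follow the formula. The genes named were the 4 chains, Cxxc1, genes of the pathway lists, the 5 closest genes in both values and the 5 genes on each side of each locus; Rcsd1, Ube4a and Ttc36 are among the latter, and the choice of which markers to name was made with their values in view. The members and lists were chosen with earlier results of these data known. Promoters came from RefSeq (all 4 matched), and transcripts were searched against the genome with blastn 2.17.0. Scripts ran in Python 3.11.15 (numpy 2.4.6, pandas 2.3.3; intervals by scipy 1.17.1; plots by matplotlib 3.10.9).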

Additional observations from a re-analysis of the deposited data

How the results depend on the processing

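The ratios between chains stayed within their counting intervals with both pseudocounts and after background subtraction, and scalings cannot change them. The count of chains past the fold was 3 as deposited, 4 at 1.5-fold, 2 with equal medians of well-expressed genes, and 3 in the other settings run. The log2 ratio of Cd3e was -0.24 when 75th percentiles were made equal and -0.067 when sums outside the 100 highest genes were, and it reversed to 0.37 when medians of well-expressed genes were. Cd247 was at -1.45 with equal 75th percentiles, and Cd3g and Cd247 were at -1.63 and -1.27 with equal sums. With equal medians of well-expressed genes, Cd3d, Cd3g and Cd247 were at -2.00, -1.20 and -0.84. These shifts follow from the factor by which each scaling multiplies the Cxxc1-deficient library, 1.31 for the 75th percentile and 1.48 for the sums.

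With the closest genes taken by the Cxxc1-deficient value, the log2 distances from their median were 0.55 for Cd3e, -1.25 for Cd3g and -0.85 for Cd247, against 0.96, -0.66 and -0.30 by the mean; the cause was not tested. Pathway genes at least 2-fold lower were 33 as deposited, 19, 15 and 11 with the last 3 scalings in the order above, and 15 at 3-fold. Chromosomal neighbours past the fold were 2 as deposited, 1 with each of the last 2 scalings and at 3-fold, and 5 at 1.5-fold and after background subtraction. DN-stage genes past the fold upward were 3 as deposited, 5, 5 and 7 with the 3 scalings, 1 at 3-fold, and 5 at 1.5-fold and after subtraction. Of 138 values under alternatives, 111 were classed as the same, 26 as moved and 1 as reversed. The margins of these classes are not given here, and the change from 3 to 2 chains past the fold was classed as the same. The tally is thus a coarse one. The depth limits Cd3d and Cd3g most, with approximately 24 and 42 reads in the Cxxc1-deficient library, or 17 for Cd3g with its shortest coding transcript. No paired analysis was possible because there is 1 library for each genotype and no test was run.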
